A study of Tupaia belangeri with 6 samples.

Results

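The expressed predicted ORF genes of the tree shrew are 148 loci of the prefrontal cortex transcriptome that carry a serial name in place of a gene symbol. The tree shrew annotation gives 2064 loci a name made of TSORFli and a number, taken here as predicted open reading frame (ORF) genes since the sources used do not spell the name out. Of these, 148 (7.17%) were selected on their measured level, which had to be at least 1 TPM (the abundance of a transcript relative to all transcripts of the library, corrected for length) in each of the 6 libraries. The tables list 95863 loci, 77240 of them with a strand, and 12665 loci with a strand pass the same threshold, which leaves 12517 other expressed loci for comparison. The level itself is therefore no finding, and the levels below are given as a description without a test.

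The libraries were made from polyadenylated RNA of the prefrontal cortex of 3 adult female (animals 1, 3 and 4) and 3 adult male (animals 1, 4 and 5) Chinese tree shrews, Tupaia belangeri, with no treatment in either sex. Every male was older than every female in the study's sample list, so age and sex cannot be told apart. The study compared DNA methylation and expression between the sexes, and each animal gave 1 RNA library. Neuronal markers summed to 5613 to 7478 TPM and astrocyte markers to 679 to 1107 TPM, while the 1 of 3 liver markers found stayed at or under 0.523 TPM. Oligodendrocyte markers (3 of 4 found) summed to 348 to 482 TPM in females but 80.7 to 236 TPM in males. MAG made up most of this sum, and MBP and MOG overlapped between the sexes. Blood markers (3 of 5 found) summed to 1275 to 2542 TPM in females but 62.7 to 101 TPM in males. Loci without a strand held 2.30% to 7.88% of the TPM, with the highest values in male 5 (7.88%) and male 1 (5.16%). Read counts per locus are not part of these tables, and the study's own list of read totals was not used here, so no counting error is given.

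An open reading frame is a stretch of a transcript that can be read from a start codon to a stop codon, and gene prediction collects such stretches also where no protein of another species gives them a name. A predicted gene that is seen in polyadenylated RNA is transcribed, but RNA sequencing alone does not show that its frame is translated, and some such loci are long noncoding RNAs, pseudogenes or unrecognised parts of neighbouring genes. In brain, long introns make a locus span far more of the genome than its mature transcript.

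The threshold left most predicted ORF genes out. In all 6 libraries, 1144 of the 2064 genes were listed at 0 TPM, and 920 were above 0 in at least 1 library. A level of at least 1 TPM was reached in no library by 1631 genes, in 1 library by 139, in 2 by 67, in 3 by 33, in 4 by 21 and in 5 by 25, so genes that reached it in all 6 libraries were more frequent than those of any number from 1 to 5. The 3 members just inside the threshold had their lowest values at 1.06 TPM (TSORFli1350, male 5), 1.08 TPM (TSORFli2321, male 1) and 1.08 TPM (TSORFli315, female 4). The 3 genes just outside it reached 0.980 TPM (TSORFli1566, female 4), 0.944 TPM (TSORFli2519, male 1) and 0.905 TPM (TSORFli815, male 5) in their lowest library. The mean levels of both sets overlapped, 2.40 to 3.21 TPM outside and 2.49 to 5.04 TPM inside.

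Together the 148 members held a small and steady share of the transcriptome. Their TPM summed to 5818 in female 1, 6408 in female 3, 6192 in female 4, 5552 in male 1, 6025 in male 4 and 5685 in male 5. These sums were 0.599%, 0.663%, 0.640%, 0.584%, 0.628% and 0.594% of all TPM, with a mean of 0.618% ± 0.031 (SD, n = 6), and the ranges of the sexes overlapped. Of the TPM of all 2064 predicted ORF genes, the members carried 94.0% to 95.2% in every library. The share was uneven among members, since the most abundant gene held 12.1% to 27.7% of the members' TPM. The 12 most abundant in each library, which were not the same genes throughout, held 46.5% to 56.0% together. The first share was highest in male 1 and the second in female 4.

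A typical member was present at a lower level than a typical expressed gene. The mean TPM over the 6 libraries had a median of 12.7 (quartiles 5.44 and 38.3, range 2.04 to 986) over the members and 22.0 over the other expressed loci. Among the latter the median was 25.03 TPM for the 8782 named genes, 24.1 for the 1167 copies named after another gene and 11.9 for the 2568 unnamed loci, so the members were placed near the unnamed loci. Of the members, 13 had a mean under 3 TPM, 53 from 3 to 10, 37 from 10 to 30 and 45 at 30 or more. In the order of all expressed loci by mean TPM, 92 members (62.2%) lay below the median, 5 in the top 10% and 1 in the top 1%. Within a library, 78 to 86 members were at 10 TPM or more and 9 to 18 at 100 TPM or more.

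**Figure D1:**
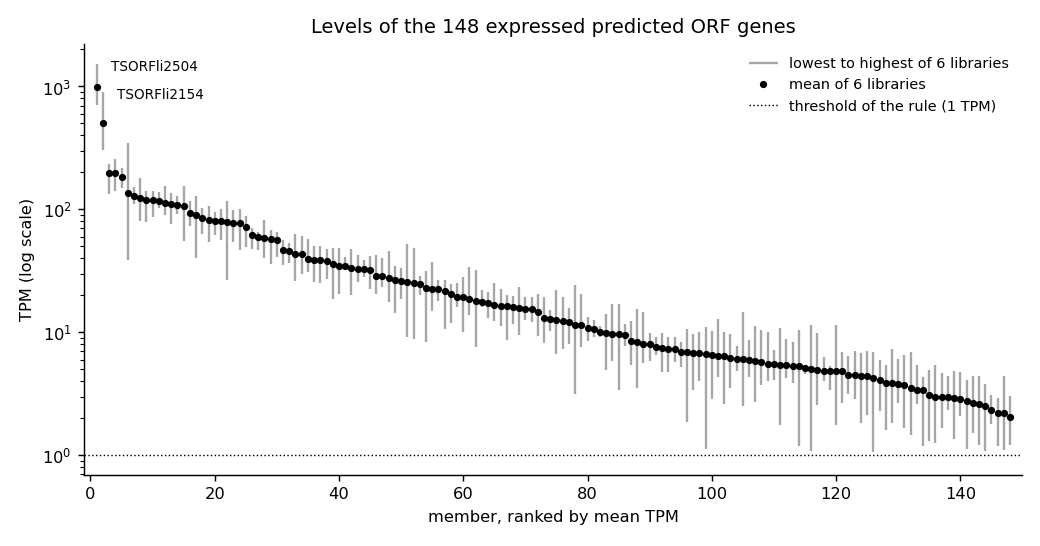
TPM on a log axis against the rank of each of the 148 members by mean TPM. Points are means of 6 libraries and grey bars run from the lowest to the highest library. 2 members stand apart with means of 986 and 499.9 TPM, and the remainder falls from 197 TPM to 2.04 TPM without a break.

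The most abundant member was TSORFli2504, on the minus strand of an unplaced contig of the TS_3.0 assembly (contig17676:6307-35908). It had 855 TPM in female 1, 1140.5 in female 3, 949 in female 4, 1536 in male 1, 731 in male 4 and 707 in male 5, and ranked 103 among the 77240 loci with a strand. Male 1 was the highest library and the other males the lowest, so the sexes overlapped. The contig holds only a few other loci, and UBE2Bli2, a copy named after the ubiquitin-conjugating enzyme gene UBE2B, lies inside the member on the other strand and was listed at 0 TPM in all 6 libraries.

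The next, TSORFli2154, spans chr4:61912988-61959117 on the plus strand. It had 422 TPM in female 1, 341 in female 3, 897 in female 4, 304 in male 1, 500.5 in male 4 and 534 in male 5, and the single high value in female 4 set the width of its range. It is 1 of 11 members that overlap no other locus. Its named neighbours are DLK1, a non-canonical Notch ligand, 65883 bp to the left, and RTL1, a gene derived from a retrotransposon, 3889 bp to the right. In other mammals both genes belong to an imprinted domain that also gives rise to noncoding RNAs. DLK1 was at 0.171 TPM and RTL1 at 0.651 TPM on average, values looked up after the member's position was known. The RefSeq annotation of an older assembly, TupChi_1.0, lists 1 entry between DLK1 and RTL1, the long noncoding RNA LOC102501470, but the builds differ and the member was not matched to it.

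Of the 10 members that follow, 9 had their highest library 1.35-fold to 2.23-fold above their lowest. TSORFli1071 (chr2:81390709-81411268) had 197 TPM in female 1, 233 in female 3, 172 in female 4, 134 in male 1, 224 in male 4 and 220.0 in male 5. It overlaps ELOB, the elongin B subunit of ubiquitin ligases and of an elongation factor, on the other strand, which was at 239 TPM on average. TSORFli1582 (chr23:22464910-22623477) had 208, 206 and 199.8 TPM in females 1, 3 and 4 and 141, 256 and 164 TPM in males 1, 4 and 5, and overlaps DHX30, an RNA helicase, at 97.6 TPM on the other strand. In both genes male 1 was the lowest library and the sexes overlapped.

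Others in this group lie apart from any well expressed gene on the other strand. TSORFli1833 (chr27:5980035-6069716) had 194, 215 and 188 TPM in the females and 149.8, 167 and 177 TPM in the males, and is the only 1 of the 12 whose sexes did not overlap. It lies 7655 bp from DNM2, which encodes dynamin 2 of endocytosis, and 3281 bp from KRI1. TSORFli2153 (chr4:57276634-57368443) was at 110 to 135 TPM in females but 120.3 to 152 TPM in males, and TSORFli404 (chr11:24795757-24966215) at 116 to 125 TPM in females but 86.6 to 140.0 TPM in males. TSORFli335 (chr11:60077440-60150729) was the steadiest of the 12, at 115, 115 and 115 TPM in the females and 138, 102 and 116 TPM in the males, which puts its highest value 1.35-fold above its lowest. It overlaps CEP68, a centrosomal protein gene, at 4.83 TPM on the other strand.

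The remaining 3 of these 9 differ in what surrounds them. TSORFli2417 (chr8:33216017-33228744) had 121, 88.5 and 80.2 TPM in females 1, 3 and 4 and 161, 113 and 179 TPM in males 1, 4 and 5. TSORFli2372 (chr7:58139200-58171721), which overlaps no other locus, had 134, 141 and 117 TPM in the females and 79.4, 139 and 111 TPM in the males. TSORFli674 (chr15:63200457-63244462) had 104, 129.8 and 107 TPM in the females and 89.7, 156 and 90.6 TPM in the males, and overlaps the glucose-6-phosphatase subunit gene G6PC3, at 68.8 TPM, on the other strand. In each of these the sexes overlapped.

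The exception among the 12 was TSORFli2147 (chr4:34085061-34679480), whose TPM ran over 9.06-fold. It had 80.7 TPM in female 1, 179.7 in female 3, 349.5 in female 4, 38.6 in male 1, 45.6 in male 4 and 124 in male 5. Female 4 was the highest library, as for TSORFli2154, and male 5 lay above female 1.

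**Figure D2:**
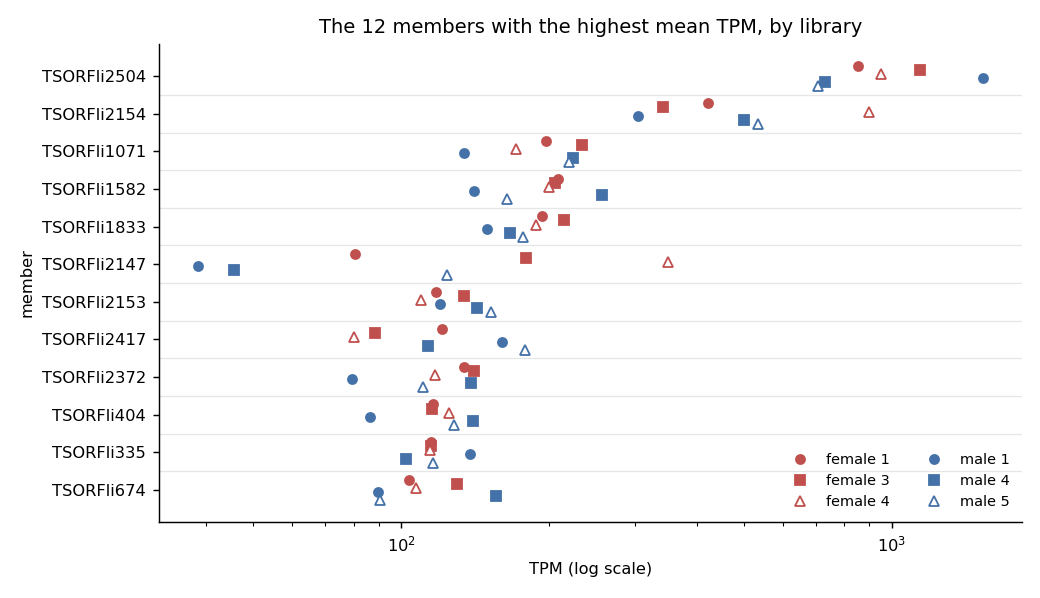
TPM on a log axis of the 12 members with the highest mean TPM in each of the 6 libraries, with females in red and males in blue. TSORFli2147 spreads from 38.6 to 349.5 TPM, whereas TSORFli335 stays between 102 and 138 TPM.

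The members were long loci. Their span, introns included, had a median of 40382 bp (quartiles 16379 and 106190 bp, range 591 to 1032619 bp), close to the 42875 bp of the other expressed loci and above the 5430 bp of the 1916 predicted ORF genes that were no members. The share of predicted ORF genes that were members rose with span, from 2 of 351 (0.570%) under 1 kb to 18 of 869 (2.07%) from 1 to 10 kb, 89 of 751 (11.9%) from 10 to 100 kb and 39 of 93 (41.9%) at 100 kb or more. Among the 148 members, span and mean TPM were only loosely related (Spearman's rho = 0.20 over the 148 genes, which share libraries and are not independent). The span is that of the locus after StringTie merged the assembled transcripts with the annotation, and it is not the length of the predicted frame. All 148 members carry the identifier of such a merged locus, as do 99.95% of the other expressed loci. Of the predicted ORF genes, 1163 carry it (median span 7736 bp) and 901 keep the identifier of the annotation (4635 bp), and none of the latter was a member. The rise with span was not split by identifier.

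The longest members were not the most abundant. TSORFli462 (chr12:81627978-82660596) spans 1032619 bp and had 46.5 to 65.5 TPM, with female 4 the lowest library. TSORFli1415 (chr22:15259879-16018468) spans 758590 bp, contains 27 whole other loci and had 54.9 to 156 TPM, lowest in male 1 and highest in male 4. It overlaps an unnamed locus at 169 TPM on average on the other strand. TSORFli1960 (chr30:6233668-6897287) spans 663620 bp, had only 1.20 to 4.41 TPM, and overlaps the neuritin gene NRN1, a neuronal plasticity factor, which was at 206 TPM on the other strand.

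The shortest members covered a similar range of levels. TSORFli774 (chr16:67054447-67055037, 591 bp) had 5.37 to 12.3 TPM and TSORFli1315 (chr20:29883238-29884446, 1209 bp) 2.68 to 6.04 TPM. The latter lies opposite ANK2, the ankyrin B gene, which was at 143 TPM. TSORFli298 (chr10:54186747-54187536, 790 bp) had 106, 128 and 66.4 TPM in females 1, 3 and 4 and 40.0, 116 and 82.6 TPM in males 1, 4 and 5. It lies 265 bp to the right of UBE2QL1, a ubiquitin-conjugating enzyme-like gene at 57.6 TPM on average, and male 1 was its lowest library.

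**Figure D3:**
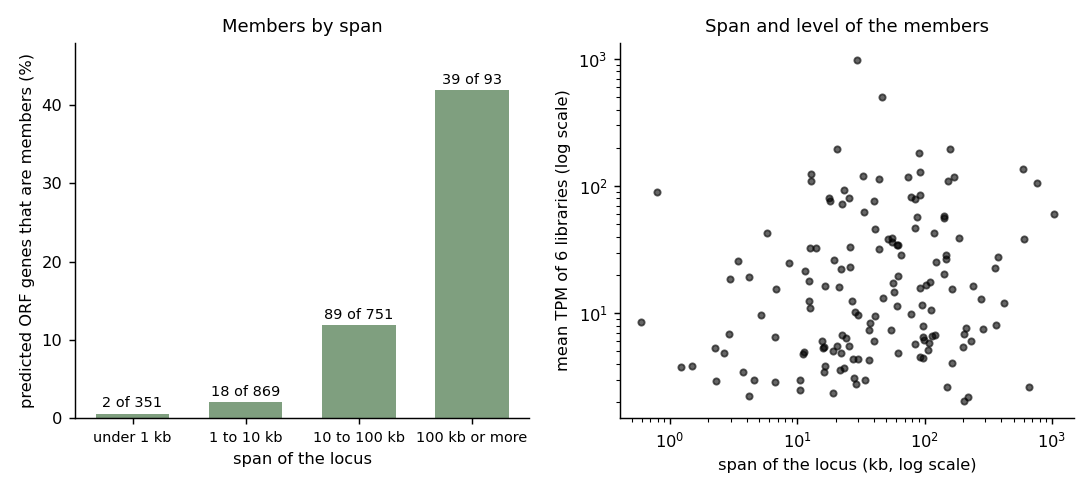
Left, the percentage of predicted ORF genes that are members in 4 classes of genomic span, with the counts above the bars. Right, mean TPM against span of the 148 members, both on log axes. The percentage rises from 0.570% to 41.9%, while members of any span above 10 kb reach both low and high levels.

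The members were spread over the genome. They lie on 29 of the 31 chromosomes of the assembly and on 11 unplaced contigs, with none on chromosomes 26 and 29. Chromosomes 9 and 11 hold 10 members each, chromosome 16 holds 9, chromosomes 2 and 22 hold 8 each, and the X holds 4. Measured against all predicted ORF genes, the share that were members ran from 2.5% on chromosome 24 to 13.6% on chromosome 30 among the chromosomes with any. Unplaced contigs held 7.43% of the members and 4.32% of the other expressed loci, and by level the contigs (summed mean 1285 TPM) and chromosome 4 (914 TPM) led, with TSORFli2504 and TSORFli2154 as their most abundant members. The plus strand carried 86 members and the minus strand 62 (58.1% plus), against 50.4% plus among the other expressed loci. No test was made of any of these shares.

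On the X, the 4 members differed in level and in steadiness. TSORFli1926 (chrX:98092377-98125757) was the highest and steady, with 70.8, 67.6 and 47.3 TPM in females 1, 3 and 4 and 60.5, 67.1 and 59.2 TPM in males 1, 4 and 5. TSORFli1901, 29295 bp away on the other strand, had 18.5 to 33.3 TPM and TSORFli1919 1.09 to 4.43 TPM. TSORFli1904 (chrX:104030257-104032509) had 1.295, 5.47 and 1.19 TPM in the females and 10.4, 4.10 and 9.39 TPM in the males, an 8.78-fold range in which the sexes overlapped. It overlaps an unnamed locus at 62.5 TPM on average on the other strand.

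Most members share their place with other transcribed loci. On the opposite strand, 134 of 148 (90.5%) overlap another locus, and 69 overlap a named gene or copy, against 1128 of 1916 (58.9%) and 435 of the other predicted ORF genes, which are shorter. The same strand went the other way, with 36 members (24.3%) overlapping another locus there against 1222 (63.8%) of the other predicted ORF genes. Of the latter, 901 keep the identifier of the annotation, while all 148 members carry that of a merged locus. The overlaps were not split by identifier. A whole other locus lay inside 98 members (66.2%, against 58.6%), and 11 members (7.43%, against 3.86%) overlap none. The opposite-strand locus was at 1 TPM or more on average for 87 members, and above the member itself for 47, of which 31 had a named gene and 3 a copy as the strongest partner. The library protocol describes no step that marks the strand, so reads of a member and of a locus opposite to it may not be separable, and the values of these members are uncertain to that degree. An extreme case was TSORFli1350 (chr21:30212162-30248610), with 1.06 to 6.88 TPM opposite HPN, the hepsin protease gene, at 794 TPM.

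Members were seldom close neighbours. The nearest other member was a median of 2014199 bp away, 49 members had one within 1 Mb, and 12 were alone on their chromosome or contig. In 2 pairs the members overlap each other. TSORFli352 contains TSORFli353 on the same strand of chromosome 11 (means of 15.6 and 6.88 TPM), and TSORFli1260 and TSORFli1300 overlap on opposite strands of chromosome 20 (6.20 and 10.6 TPM). Reads of such pairs may be counted for either gene. A named gene lay within 10 kb of 53 members.

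The TPM of many members stood above what the coverage of the locus gives. In loci without a strand, TPM was the deposited coverage times 1 constant per library (0.6503 to 0.836), and with that constant the mean coverage of each member was turned into TPM-equivalents. The ratio of TPM to TPM-equivalents, taken as the median over the 6 libraries, had a median of 2.73 in the members (range 1 to 90.2). In the other expressed loci the median was 1.48. The ratio was over 5 in 47 members (31.8%, against 15.0% of other loci) and over 20 in 8 (5.41%, against 2.81%, but 5.88% of the unnamed loci), and under 1.1 in 21 (14.2%, against 28.8%). It went with span, since members with a ratio over 20 had a median span of 278738 bp and those under 1.1 of 6698 bp. Had the threshold been set on coverage, 102 members would have passed in all 6 libraries, and 20 members were under 1 TPM-equivalent in every library. What produces the ratio was not tested.

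TSORFli2147 shows how much can turn on this. Its coverage in females 1, 3 and 4 was 1.08, 1.07 and 1.53 TPM-equivalents and that in males 1, 4 and 5 was 1.70, 1.33 and 1.34, which is a 1.59-fold range against 9.06-fold in TPM, and male 1, the lowest library in TPM, was the highest in coverage. By contrast TSORFli2504 and TSORFli2154 had the same highest library in coverage as in TPM, with 672 TPM-equivalents in male 1 for the former and 271 in female 4 for the latter. In TSORFli1960 the TPM of 1.20 to 4.41 rested on 0.029 to 0.046 TPM-equivalents.

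**Figure D4:**
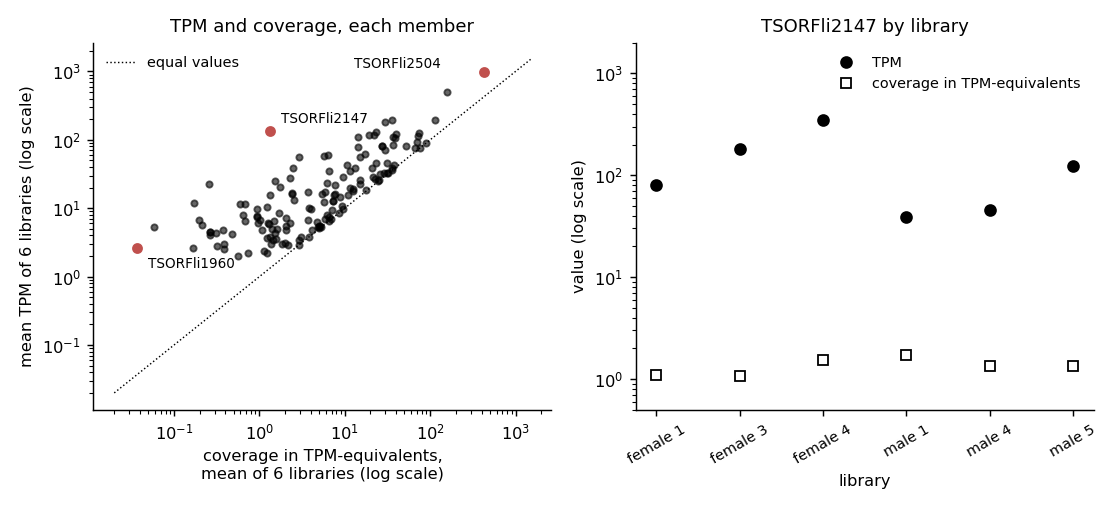
Left, mean TPM against mean coverage in TPM-equivalents of the 148 members on log axes, with a dotted line where both are equal and 3 members in red. Right, TPM and coverage in TPM-equivalents of TSORFli2147 in the 6 libraries. Members lie on or above the line, and TSORFli2147 spans 38.6 to 349.5 TPM at 1.07 to 1.70 TPM-equivalents.

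In TPM the members varied somewhat more between animals than other expressed loci. The SD of log2(TPM + 1) over the 6 libraries had a median of 0.387 in the members and 0.330 in the other loci, the coefficient of variation 29.9% and 24.1%, and the ratio of the highest to the lowest library 2.21 and 1.93. In each class of mean level the median SD of the members was also the higher one, at 0.430 against 0.356 under 3 TPM, 0.472 against 0.412 from 3 to 10 TPM, 0.380 against 0.335 from 10 to 30 TPM and 0.308 against 0.287 at 30 TPM or more. By the ratio of TPM to coverage it was the higher one in 4 of 5 classes, and at a ratio of 1.1 to 2 the lower one, at 0.310 against 0.321. Named genes (0.315) and copies (0.325) had lower medians and unnamed loci (0.395) a like one. With 1 added, the members' median SD was 0.283 in FPKM and 0.279 on coverage in TPM-equivalents (chosen after seeing the data). It was not computed for the other loci on these measures, so the comparison holds for TPM alone. These are descriptions over chosen genes, and no test was made.

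The 5 most variable members, TSORFli2147 and TSORFli1904 among them, had a highest library 7.64-fold to 10.7-fold above the lowest. TSORFli315 (chr11:8878019-8897148) ran over 10.7-fold, with 4.604, 11.5 and 1.08 TPM in females 1, 3 and 4 and 6.08, 3.82 and 3.18 TPM in the males. TSORFli2367 (chr7:52548474-52662359) ran over 9.81-fold, with 9.19, 11.1 and 6.07 TPM in the females and 8.72, 3.83 and 1.13 TPM in the males, male 5 being far the lowest. TSORFli2279 (chr5:34875849-34970926) ran over 7.64-fold, from 3.17 TPM in female 4 to 24.2 TPM in male 5.

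The least variable members were found at low, middle and high levels. TSORFli1681 (chr24:36258935-36364688) had 4.89, 5.31 and 5.14 TPM in the females and 5.35, 4.58 and 5.39 TPM in the males, a 1.18-fold range. TSORFli1580 (chr23:22157310-22185834), opposite the lactotransferrin gene LTF at 9.50 TPM, had 9.10 to 11.2 TPM in a 1.23-fold range. TSORFli1008 (chr18:60822703-60883690) had 31.9 to 40.9 TPM over 1.28-fold and TSORFli1300 (chr20:25577217-25689179) 9.21 to 12.6 TPM over 1.37-fold.

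Certain libraries sat low for many members at once. Male 1 was the lowest library for 50 members (33.8%) and female 4 for 37 (25%), against 24.6% and 29.99% of the other expressed loci. Female 3 was the highest for 37 members (25%, against 23.7% of other loci) and male 4 for 32 (21.6%, against 13.6%). The median log2 deviation of a library from each gene's median was lowest in male 1 (-0.14 in members and -0.07 in other loci) and female 4 (-0.13 and -0.09) and highest in male 4 in the members (0.08, and 0.00 in other loci). Male 5 (7.88%) and male 1 (5.16%) had the most TPM in loci without a strand, and female 4 had 3.33%. Male 5 was the lowest library for 14.2% of members, against 18.1% of other loci. The part of loci without a strand in the members' values was not tested.

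The comparison of the sexes asked whether any member differed between females and males. No member passed the adjusted threshold of 0.1 (limma on log2(TPM + 1) with Benjamini-Hochberg adjustment over 30238 loci), with a lowest adjusted p of 0.646, while 5 of all loci did (0.0165%). At an unadjusted p under 0.05 by limma, 4 members were higher in females (2.70%, against 2.45% of all loci tested) and 3 were higher in males (2.03%, against 2.58%). The background depends on the loci taken, since it was 2.55% and 1.41% over loci with a strand, and 2.97% and 1.15% over those with at least 1 TPM in all libraries. Without male 4 the counts became 10 (6.76%) and 5 (3.38%) while all loci also rose, to 5.05% and 4.38%. Without male 5 they became 2 (1.35%, against 1.74% of all loci) and 1 (0.676%, against 2.72%), and the count higher in males was 1 (0.676%, against 1.98%) without female 4 as well. All 148 members passed the filter on low values of the test, which is weaker than the rule that chose them. The median log2 difference, female minus male, was 0.04 over the members, 0.04 over all loci with a strand and at least 1 TPM in all libraries, and -0.03 over all loci tested, with 82 members above 0 and 66 below. Over the members it ran from -0.02 without male 1 to 0.13 without female 4 when 1 animal was left out, and was -0.01 where TPM was rescaled over loci with a strand.

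Non-overlap of the 3 females and 3 males gave a like picture. Every female was above every male in 5 members (3.38%, against 5.76% of all loci with a strand and at least 1 TPM in all libraries), and every male above every female in 4 (2.70%, against 3.21%). On coverage, 6 of these 9 members kept the sexes apart in the same direction and 3 overlapped. With 3 against 3 animals, an exact permutation test cannot give a two-sided p under 0.1. In this tissue, fewer cells of a type and less RNA per cell cannot be told apart, and the summed oligodendrocyte and blood markers were higher in the females. The part of these in any difference was not tested.

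TSORFli2439 (chr8:32062618-32185783) differed most. It had 9.13, 13.9 and 8.74 TPM in females 1, 3 and 4 and 44.4, 48.6 and 25.95 TPM in males 1, 4 and 5, so that the lowest male was well above the highest female. The means were 10.6 ± 2.87 and 39.6 ± 12.03 TPM (SD, n = 3 each), and the log2 difference was -1.79 (SE 0.299, unadjusted p = 0.000256 by limma, and 0.646 after Benjamini-Hochberg adjustment). Its coverage overlapped between the sexes, with 1.16, 1.48 and 1.11 TPM-equivalents in the 3 females but 1.31, 1.88 and 2.15 in the 3 males. On coverage the log2 difference was -0.30 with 1 added (SE 0.361) and -0.50 without a pseudocount. The values without a pseudocount, here and for the members named next, were added after seeing the data and have no test, and adding 1 compresses differences between values this low. Over 18 alternatives the adjusted p of limma ran from 0.307 to 0.9998. The member overlaps ZDHHC20, a palmitoyltransferase gene, at 21.2 TPM on the other strand.

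The other members that were higher in all males were low in level. TSORFli1996 (chr3:2147041-2267770) had 3.38, 5.38 and 5.87 TPM in the females and 9.60, 8.76 and 7.69 TPM in the males, on a coverage of only 0.140 to 0.303 TPM-equivalents. TSORFli797 (chr16:3448737-3450215) had 1.84, 2.48 and 2.9997 TPM in the females and 3.27, 5.26 and 7.27 TPM in the males. It overlaps DCAF6, at 140.0 TPM, on its own strand and GPR161, at 22.3 TPM, on the other strand. TSORFli1355 (chr21:33379063-33398037), which overlaps no other locus, had 1.78 to 2.01 TPM in females but 2.38 to 3.08 TPM in males. Their log2 differences were -0.74, -0.83 and -0.40. That of TSORFli1355 was -0.09 under quantile normalization and -0.20 with FPKM, and that of TSORFli797 was -0.49 with FPKM. On coverage that of TSORFli1996 was -0.05 with 1 added and -0.26 without a pseudocount, and its sexes overlapped, with 0.140 to 0.216 TPM-equivalents in females and 0.166 to 0.303 in males.

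Of the 5 members higher in all females, the contig gene TSORFli2530 (contig3613:1311-5518) had 22.5, 23.5 and 28.2 TPM in the females and 13.5, 18.8 and 10.003 TPM in the males (log2 difference 0.80, SE 0.266). TSORFli2329 (chr6:27866937-27985251) had 60.6, 56.4 and 40.4 TPM in the females and 29.8, 37.5 and 33.2 TPM in the males (0.62, SE 0.209). It overlaps GPR19, an orphan receptor gene, at 5.87 TPM on the other strand. TSORFli552 (chr14:7783824-7788990) had 8.02 to 17.1 TPM in females but 5.89 to 7.55 TPM in males, and TSORFli50 (chr1:211826464-211853912) 4.98 to 6.78 and 1.83 to 4.10 TPM. The abundant TSORFli1833, described above, differed by 0.27 on the log2 scale, and its coverage overlapped between the sexes, with 27.6 to 35.5 TPM-equivalents in females and 22.5 to 33.6 in males. For TSORFli50 the log2 difference was 0.72 in TPM, 0.47 with FPKM or without male 5, and 0.35 with the replicate number as a block. On its coverage of 0.149 to 0.409 TPM-equivalents it was 0.16 with 1 added and 0.74 without a pseudocount. After Benjamini-Hochberg adjustment of the limma p-values, all 5 stood at 0.926.

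Other members with a low unadjusted p had overlapping sexes. TSORFli2417 was higher in males on average (151 ± 33.9 against 96.6 ± 21.7 TPM, SD, n = 3 each) and TSORFli2147 in females (203 ± 136 against 69.4 ± 47.4 TPM), but the log2 difference of the latter, 1.496 in TPM and 0.99 without female 4, was -0.15 on coverage with 1 added and -0.26 without a pseudocount. TSORFli1904 was higher on average in males and TSORFli2600, at the edge of contig9764 and named after its values were seen, in females (34.7 ± 15.9 against 16.8 ± 12.1 TPM). The latter overlaps ANO8, at 27.9 TPM on the other strand. TSORFli2417 and TSORFli2439 are the only members on chromosome 8. Among genes outside the set, TSORFli1936 on chromosome 29, picked after its values were seen, missed the threshold in female 1 alone, with 0.867, 1.27 and 3.61 TPM in the females and 9.61, 40.4 and 17.3 TPM in the males.

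**Figure D5:**
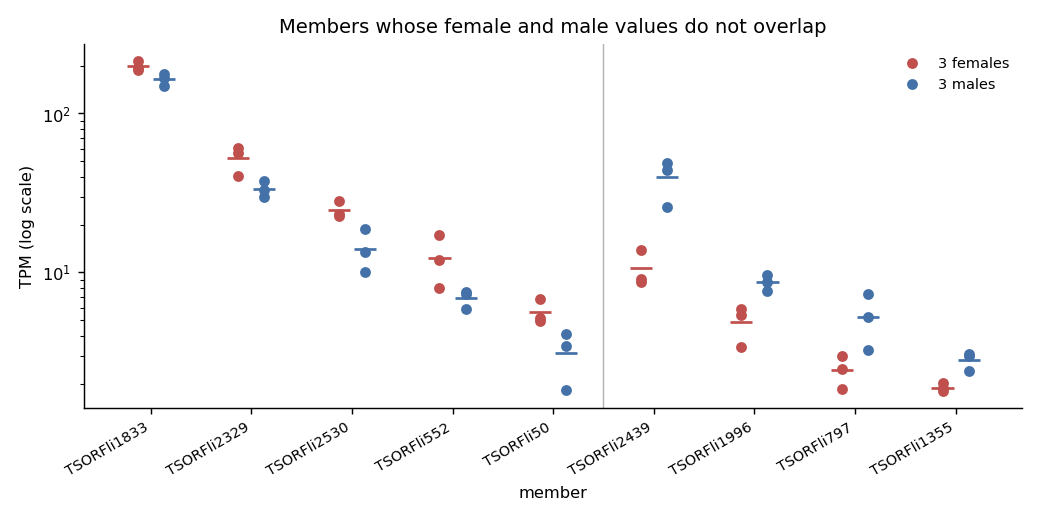
TPM on a log axis of the 9 members whose female (red) and male (blue) values do not overlap, with 1 point per library and a bar at each sex's mean. The 5 members left of the line are higher in females and the 4 to its right higher in males, and TSORFli2439 has the widest gap, from 13.9 TPM in the highest female to 25.95 TPM in the lowest male.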

How the data were processed

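RNA was extracted from the prefrontal cortex of 6 animals, enriched for polyadenylated RNA and sequenced as paired-end reads. The authors mapped reads to TS_3.0 with HISAT2 2.2.1 and assembled, merged with the reference annotation and quantified transcripts with StringTie 2.2.1, as the submitters' processing notes name them. The deposited TPM values are relative to each library. The deposited FPKM values are a multiple of TPM within a library and served as an alternative. The deposited coverage values are a signal not scaled for library size. These tables hold TPM in place of read counts, so limma replaced the count test used in the study. Strand-specific counting is not given in the sources used here.

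TPM was summed per gene identifier and chromosome. The sexes were compared with limma 3.58.1 (R 4.3.3; trend, log2(TPM + 1), loci with at least 0.1 TPM in 3 or more libraries, outside the male-only segments of chromosomes X and 26), checked on simulated data. Summaries used Python 3.11.15 with pandas 2.3.3. Members named are the 12 most abundant, the 3 longest and shortest, the 5 most and least variable, up to 5 per direction with separated sexes, 3 on either side of the threshold and the highest X member. Outside this rule, TSORFli1901 and TSORFli1919 were named for their place on the X, and TSORFli352, TSORFli353 and TSORFli1260 for their overlap with another member. The members and lists were chosen with earlier results of these data known. Animals are separate, and p-values measure the spread between them. No reference sequence of this build was used here, and no member matched a RefSeq symbol.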

Additional observations from a re-analysis of the deposited data

How the results depend on the processing

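No member passed an adjusted p of 0.1 by limma under any alternative run, and among the 13 members with separated sexes or an unadjusted p under 0.05, 1 direction reversed, that of TSORFli2147 on coverage (-0.15 with 1 added, and -0.26 without a pseudocount, chosen after seeing the data). With a mean of at least 1 TPM in place of 1 TPM in every library, 233 genes would be members, and with 1 FPKM, 99. Without the 2 most abundant members, an alternative chosen after seeing the data, the share of TPM fell from 0.618% to 0.464%. At an unadjusted p under 0.05 by limma, 4 members and 741 of 30238 loci were higher in females. With the replicate block these became 2 and 568, and without the variance trend 1 and 663. On coverage (chosen after seeing the data) they were 2 of 146 members tested and 724 of 28660 loci. Higher in males, 3 members and 781 loci became in turn 2 and 653, 4 and 916, and 2 and 779. Leaving out 1 animal at a time gave 2 (without male 5) to 10 (without male 4) members higher in females, while the share of all loci went from 1.74% to 5.05%. The 3 higher in males became 1 (without female 4 or male 5) to 5 (without male 4), with 1.98%, 2.72% and 4.38% of all loci. The cause was not tested. The median difference of the members, 0.04, was between -0.02 (without male 1) and 0.13 (without female 4) when 1 animal was left out, and -0.01 when TPM was rescaled over loci with a strand. Animal numbers 1 and 4 occur in both sexes, but deviations of same-numbered libraries correlated at 0.034 and 0.157, so that the numbers were not shown to pair the animals. The block left 3 calls over all loci and none among members. Without read counts per locus, no counting error can be given for members with low coverage.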
